A study of Arabidopsis thaliana with 4 samples.

Results

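The genes described here encode nucleotide-binding leucine-rich repeat (NLR) immune receptors of Arabidopsis thaliana. They were taken as a list of 37 loci, of which 22 encode receptors with an amino-terminal TIR domain (TNL), 9 encode receptors with a coiled-coil domain (CNL), 5 encode helper receptors with an RPW8-type domain (RNL) and 1, AT5G45490, encodes a P-loop protein. All non-control probes that the array annotation pairs with these loci were used. This gave 67 of the 43603 probes of the array, for 35 of the 37 loci, out of 25455 loci with a probe in all. SNC1 and ADR1-L1 were paired with no probe and were not analysed here.

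NLR proteins sit inside the cell and detect effector proteins of bacteria, oomycetes, fungi and viruses, either by binding them or by sensing what they do to a host protein. Many TNL genes work as a pair that lies head to head in the genome, with 1 partner that senses and another that signals. TNL signals run through the lipase-like proteins EDS1, PAD4 and SAG101 to the helper receptors of the ADR1 and NRG1 families, while several CNL receptors are held by host proteins such as RIN4 or a MAP kinase cascade. In leaves these genes are mostly transcribed at low levels, many lie in clusters of near-identical copies, and their sequences and copy numbers differ strongly between natural accessions.

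Plants of the Col-0 line (wild type) were compared with plants of the AvSAMS1 TF line, which carries an S-adenosyl methionine synthetase cDNA of the grass Andropogon virginicus under the CaMV 35S promoter. It is 1 homozygous single-insert transformant line (TF6), for which the labels give the ecotype Columbia-0 as for the wild type. The plants were 3 weeks old and were exposed to Al at pH 4.2 for 2 d, at 300 mM by the labels and 300 μM by the methods. Each of the 4 arrays held Al-treated plants in Cy5 against untreated plants of the same line in Cy3, with 2 arrays per line from different pools of plants and no exchange of the dyes. By the labels, untreated plants were taken at day 0 for replicate 1 of both lines and at day 2 for replicate 2. The tissue is given as whole plants, although the labelling protocol names shoots. With 1 transformant line, an effect of the transgene and any other genetic difference between the lines cannot be told apart. The transgene itself comes from another species and was not measured here.

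Signal depth differed between the replicates. Between 62.2% and 78.1% of the probes were well above background in Cy3, with the lowest share on the array of AvSAMS1 TF replicate 1. All 17 leaf photosynthesis markers were well above background in every channel, but their median untreated signal was 16.1 on that array (log2 scale) and between 17.2 and 18.3 on the other arrays. Of the 23 root markers with a probe, 10 and 11 were well above background without Al in replicate 1 of Col-0 and AvSAMS1 TF, and 23 in replicate 2 of each line. The log2 ratios of signal with Al over signal without Al of the 2 Col-0 arrays had a correlation of 0.48 over 25773 probes. For the 2 AvSAMS1 TF arrays it was −0.28, and for AvSAMS1 TF replicate 1 and Col-0 replicate 2 −0.33. Between the lines, the replicate 2 arrays had the highest correlation of all pairs (0.83), and the replicate 1 arrays had 0.08. Col-0 replicate 1 and AvSAMS1 TF replicate 2 had 0.46.

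The clearest feature of the NLR genes was a difference between the lines that was present with and without Al. Of the 67 probes, 10 probes of 8 loci (CSA1, CHS3, WRR4, AT3G44670, AT3G44400, RPP5, RPP2B and AT5G45490) were well above background in all 4 values of AvSAMS1 TF (2 arrays, both channels) and in none of the 4 values of Col-0. This was the case for 213 of all 43603 probes, or 0.488%. The reverse, a probe seen in all 4 values of Col-0 and in none of AvSAMS1 TF, was found for 0 NLR probes and for 87 probes in all (0.200%). In whole-plant RNA, fewer cells that express a gene and less RNA per cell cannot be told apart. The rule for these counts was chosen after the values were seen. Replicate 2 alone gave 13 such NLR probes and replicate 1 alone 14. By the rule, the 10 had to be among them each time, so that their return is no support. The 14 include SUMM2, whose spot in Col-0 replicate 1 was dropped as an outlier and was counted as not well above background. Another flag of the scanner software (signal positive and significant against the local background) left 3. Within replicate 2, whose arrays of both lines share 1 slide, the 10 probes were higher in AvSAMS1 TF by 1.75 to 5.02 on the log2 scale without Al, and within replicate 1 by 1.80 to 5.63. On background-subtracted signals with quantile normalisation, the mean differences of these probes were between 5.28 and 8.74 in place of 1.78 to 4.88. The probes were picked as bright in AvSAMS1 TF and dim in Col-0, so that the direction of these differences follows from the rule. The counts of root markers above moved with the replicate number and not with the line. The median leaf marker signal without Al was lower on both AvSAMS1 TF arrays than on both Col-0 arrays. With Al it was higher on both, at 17.3 and 17.8 against 16.7 and 17.1 in Col-0. The part of root and leaf tissue in the line difference was not tested. Of the 49 NLR probes well above background in all 8 values, 8 were more than 2-fold higher in AvSAMS1 TF without Al with no overlap between the lines (3.71% of all such probes) and 2 were lower (3.88%). With Al, 10 were higher (3.41%) and 3 lower (2.68%) by the same rule.

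**Figure D1:**
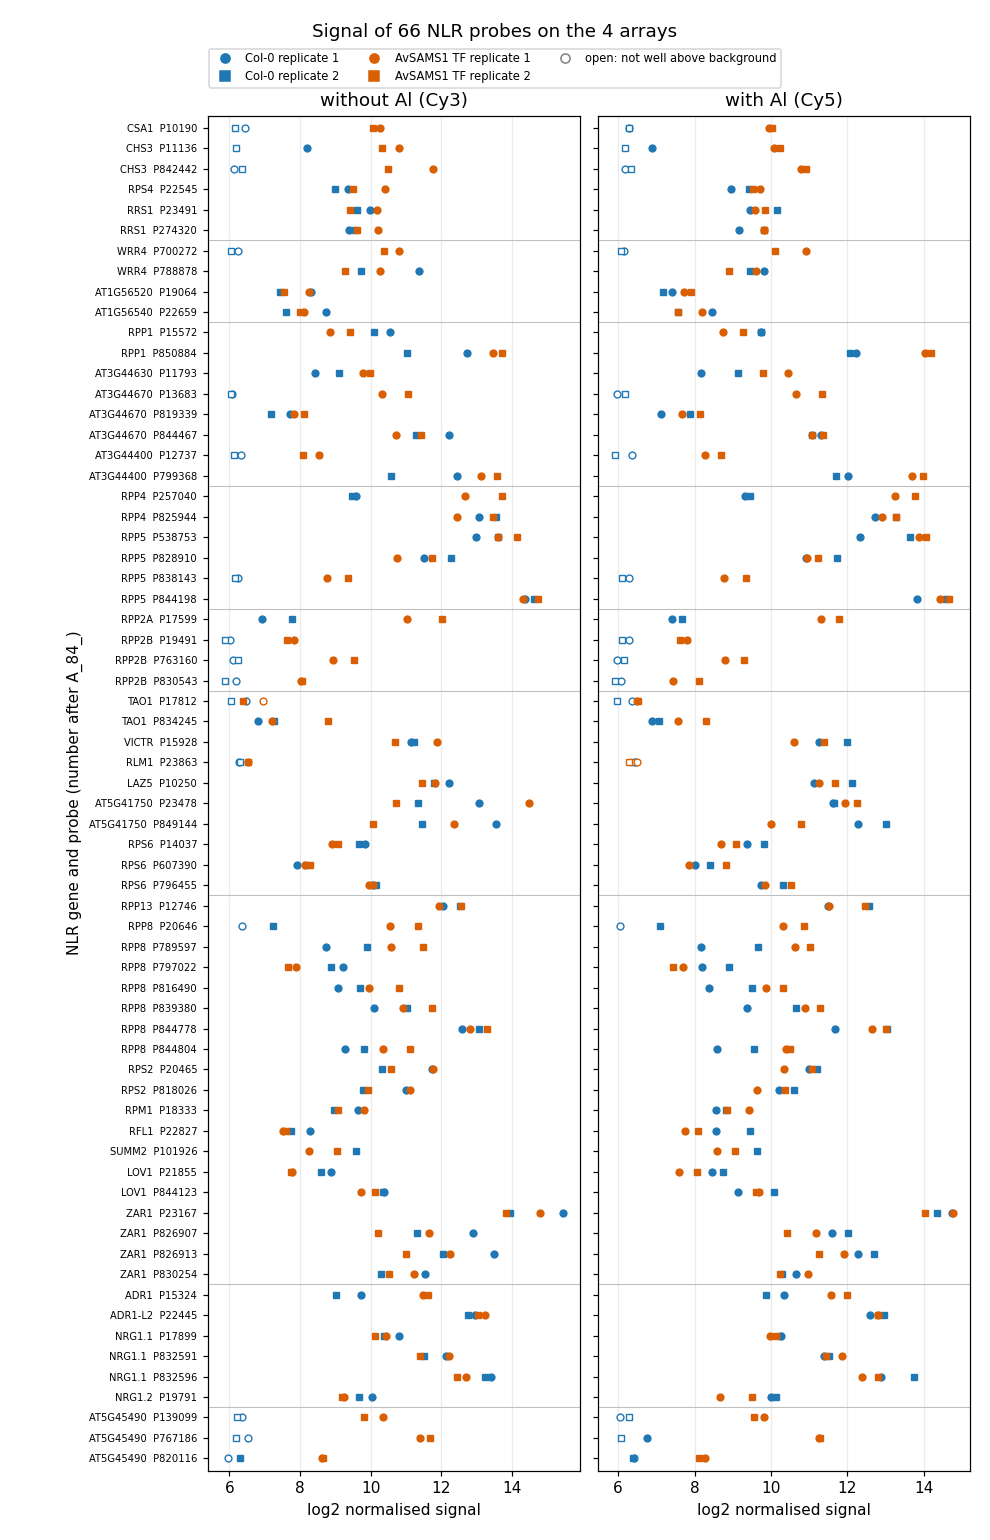
Log2 normalised signal (x axis) of 66 of the 67 NLR probes (y axis, grouped by role) on the 4 arrays, without Al in the left panel and with Al in the right panel. Points are single arrays and open points were not well above background. The 10 probes seen in AvSAMS1 TF alone have open blue points near 6 and filled orange points from 7.43 upwards.

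In the following, signals are log2 values of 1 channel after background correction and normalisation across the 4 arrays, given for Col-0 replicates 1 and 2 and then for AvSAMS1 TF replicates 1 and 2. The signal of a probe that is not well above background is only an upper limit, so that the fold is then a lower bound. Differences are AvSAMS1 TF minus Col-0 with the SE of a limma fit (n = 2 arrays per line), and p-values were adjusted over all 34739 probes that passed the filter on dim signals. Fits from 2 arrays per line measure only the spread between these pools. The filter kept 65 NLR probes of 34 loci. A probe can pass it through 1 line alone, and such a probe had to differ.

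CSA1 and CHS3 are neighbours and encode a TNL pair in which CHS3 carries an additional LIM domain. CSA1 had untreated signals of 6.43 and 6.17 in Col-0, not well above background on either array, but of 10.27 and 10.05 in AvSAMS1 TF. AvSAMS1 TF was therefore at least 14.3-fold higher without Al (difference 3.86 ± 0.27, adjusted p = 0.0446). With Al, the signals were 6.29 and 6.29 against 9.96 and 10.02, at least 12.7-fold higher (adjusted p = 0.0148). The lines were far apart and the replicates of each line close together. Of CHS3, 1 probe (A_84_P842442) gave the same picture, with 6.13 and 6.35 in Col-0 against 11.75 and 10.48 in AvSAMS1 TF without Al, at least 26.4-fold higher (adjusted p = 0.0959), and at least 22.6-fold with Al (adjusted p = 0.0124). The other CHS3 probe (A_84_P11136) was seen in Col-0 replicate 1 at 8.20 and was not well above background in replicate 2 at 6.20, against 10.79 and 10.32 in AvSAMS1 TF. Its difference of 3.36 ± 0.74 without Al missed the threshold (adjusted p = 0.403), and the difference of 3.63 ± 0.33 with Al passed it (adjusted p = 0.0328).

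The second pair of the list showed smaller differences. RPS4 and RRS1 detect the bacterial effectors AvrRps4 and PopP2, and RRS1 carries a WRKY domain as a decoy. RPS4 had untreated signals of 9.36, 9.0, 10.39 and 9.49, a difference of 0.76 ± 0.41 with no overlap between the lines (adjusted p = 0.770). RRS1 was seen on all arrays with untreated signals of 9.97, 9.60, 10.17 and 9.42 on its brighter probe, where the lines overlapped (0.01 ± 0.38), and its second probe differed by 0.44 ± 0.33. Neither gene passed the threshold with or without Al.

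WRR4 confers resistance to white rust caused by Albugo, and AT1G56520 and AT1G56540 are TNL genes beside it. A probe of WRR4 (A_84_P700272) was not well above background in Col-0, at 6.23 and 6.04 without Al, and was bright in AvSAMS1 TF at 10.80 and 10.38. AvSAMS1 TF was at least 19.3-fold higher without Al (difference 4.46 ± 0.29, adjusted p = 0.0376) and at least 19.7-fold higher with Al (adjusted p = 0.0232). The second WRR4 probe (A_84_P788878) was bright in both lines, at 11.37 and 9.71 in Col-0 and at 10.26 and 9.28 in AvSAMS1 TF, with a difference of −0.77 ± 0.70 (adjusted p = 0.868). The probes of 1 gene thus gave opposite readings. AT1G56520 (0.03 ± 0.45) and AT1G56540 (−0.10 ± 0.46) differed by less than their errors without Al.

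The RPP1 cluster holds TNL genes for resistance to downy mildew, a disease caused by the oomycete Hyaloperonospora. RPP1-type receptors bind the effector ATR1. AT3G44670 had a probe (A_84_P13683) with untreated signals of 6.07 and 6.04 in Col-0 against 10.33 and 11.06 in AvSAMS1 TF. AvSAMS1 TF was at least 20.7-fold higher without Al (adjusted p = 0.0534) and at least 26.6-fold higher with Al (adjusted p = 0.0175). Both other probes of AT3G44670 were bright in both lines, with differences of 0.53 ± 0.33 and −0.68 ± 0.48 without Al. AT3G44400 was dim in Col-0 on 1 probe (A_84_P12737), at 6.32 and 6.12 against 8.53 and 8.07, at least 3.93-fold higher without Al (adjusted p = 0.175). Its brighter probe (A_84_P799368) had 12.45 and 10.57 in Col-0 against 13.12 and 13.57, a difference of 1.84 ± 0.70 (adjusted p = 0.694). On RPP1 itself, probe A_84_P850884 had signals of 12.71, 11.02, 13.45 and 13.72 and differed by 1.72 ± 0.63 (adjusted p = 0.677), while probe A_84_P15572 was lower in AvSAMS1 TF (10.53 and 10.10 against 8.85 and 9.42, −1.18 ± 0.35, adjusted p = 0.572). AT3G44630 was higher in AvSAMS1 TF without overlap (8.43 and 9.10 against 9.79 and 9.97, 1.12 ± 0.34, adjusted p = 0.597). These genes are near-identical in stretches, so that signal from 1 copy can reach the probe of another, and the values of the cluster are uncertain for the single gene.

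RPP4 and RPP5 lie in another TNL cluster for downy mildew resistance, together with SNC1. RPP4 recognises downy mildew in Col-0, while RPP5 was defined in another accession, Landsberg erecta. RPP4 had a probe (A_84_P257040) that was well above background everywhere and much brighter in AvSAMS1 TF, with 9.59 and 9.48 against 12.65 and 13.72 without Al (3.65 ± 0.44, adjusted p = 0.123) and 9.33 and 9.44 against 13.23 and 13.76 with Al (4.11 ± 0.29, adjusted p = 0.0177). Its second probe (A_84_P825944) had 13.06 and 13.56 against 12.45 and 13.47 without Al and differed by less than its error (−0.35 ± 0.46). Among 4 probes of RPP5, A_84_P838143 was not well above background in Col-0 (6.23 and 6.15) and was seen in AvSAMS1 TF (8.76 and 9.37), at least 6.66-fold higher without Al (adjusted p = 0.109) and at least 7.12-fold higher with Al (adjusted p = 0.0466). The brightest RPP5 probe (A_84_P844198) had 14.37 and 14.62 against 14.30 and 14.74 and differed by 0.03 ± 0.30. The remaining RPP5 probes differed by 0.58 ± 0.37 and −0.65 ± 0.49. The readings of this cluster are uncertain for the single gene for the same reason as in the RPP1 cluster.

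RPP2A and RPP2B are adjacent TNL genes that are both needed for resistance of Col-0 to a downy mildew isolate. Here all probes of both genes were higher in AvSAMS1 TF. RPP2A had signals of 6.92 and 7.77 in Col-0 against 11.02 and 12.01 in AvSAMS1 TF without Al, a difference of 4.17 ± 0.51 (18.0-fold, adjusted p = 0.127). With Al, the signals were 7.42 and 7.68 against 11.32 and 11.77 (4.0 ± 0.28, adjusted p = 0.0178). All 3 RPP2B probes were not well above background in any Col-0 value and were seen in every AvSAMS1 TF value. The brightest of them (A_84_P763160) had 6.10 and 6.25 against 8.93 and 9.52 without Al, at least 7.34-fold higher (adjusted p = 0.0972), and was at least 6.89-fold higher with Al (adjusted p = 0.0375). The others were at least 2.63-fold and 3.29-fold higher without Al, with adjusted p-values of 0.185 and 0.148.

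None of the other TIR receptors passed the threshold without Al or with Al. TAO1, which contributes to the response to the effector AvrB, had 1 probe that did not pass the filter and another with 6.82 and 7.26 in Col-0 against 7.21 and 8.78 in AvSAMS1 TF, where the lines overlapped (0.95 ± 0.61). RLM1, a gene for resistance to the fungus Leptosphaeria maculans, had a single probe that was well above background in 1 of 8 values and did not pass the filter. VICTR, named for a root growth response to a small molecule, differed by 0.10 ± 0.47, and LAZ5 by −0.36 ± 0.32. RPS6, the receptor for HopA1, had 3 probes with differences of −0.77 ± 0.26, 0.18 ± 0.27 and −0.11 ± 0.25. AT5G41750 had the largest error of the list, since its untreated signal was 13.07 and 14.46 in replicate 1 of Col-0 and AvSAMS1 TF and 11.34 and 10.71 in replicate 2. Its second probe (A_84_P849144) was also well above background everywhere and gave the most negative difference of the list with Al, where it had 12.27 and 13.02 in Col-0 against 9.998 and 10.79 in AvSAMS1 TF (−2.25 ± 0.42, adjusted p = 0.187, and 0.0513 with the replicate number as a block). Without Al it had 13.53 and 11.44 against 12.35 and 10.06 (−1.28 ± 1.09), where the lines overlapped although the differences within replicates 1 and 2 were close (−1.18 and −1.38).

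Of the CNL genes, RFL1 had 8.27 and 7.74 against 7.53 and 7.60 without Al (−0.45 ± 0.31) and 8.56 and 9.44 against 7.74 and 8.08 with Al (−1.09 ± 0.38, adjusted p = 0.522), with the lower values in AvSAMS1 TF each time. RPP8, a downy mildew gene with near-identical relatives, was read by 7 probes whose differences ran from −1.28 ± 0.28 to 4.15 ± 0.47. On its probe A_84_P20646, Col-0 had 6.35, not well above background, and 7.22, against 10.53 and 11.34 (adjusted p = 0.112). The brightest RPP8 probe had 12.59 and 13.07 against 12.79 and 13.30 and differed by 0.21 ± 0.34.

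The RIN4-linked receptors RPS2 and RPM1, which respond to AvrRpt2 and to AvrRpm1 or AvrB, differed by less than their errors without Al (0.14 ± 0.67 and 0.14 ± 0.42). RPP13 differed by −0.04 ± 0.37. ZAR1, which forms a pentameric resistosome with pseudokinase partners, had untreated signals of 15.44, 13.93, 14.78 and 13.83 on its brightest probe, with overlap of the lines, and its 4 probes differed by between −1.18 and −0.04. LOV1, which confers sensitivity to the fungal toxin victorin, was lower on its dimmer probe (8.87 and 8.59 against 7.76 and 7.73, −0.99 ± 0.26, adjusted p = 0.512). SUMM2, which guards a MAP kinase cascade, differed by −0.96 ± 0.51, and its spot in Col-0 replicate 1 was marked as an outlier and dropped from the fit. None of these genes passed the threshold.

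Of the helper receptors, ADR1 was the one with a large difference between the lines. ADR1 had untreated signals of 9.71 and 9.0 in Col-0 against 11.48 and 11.62 in AvSAMS1 TF, a 4.57-fold difference (2.19 ± 0.35) that did not pass the threshold (adjusted p = 0.220). With Al, it had 10.33 and 9.88 against 11.57 and 11.99 (1.68 ± 0.30, adjusted p = 0.176). The lines did not overlap in either channel. ADR1-L2, which acts redundantly with ADR1, had 12.94, 12.76, 13.23 and 13.04 (0.29 ± 0.26). NRG1.1 and NRG1.2, the helpers that work with SAG101, were both lower in AvSAMS1 TF without overlap, NRG1.1 at 13.41 and 13.23 against 12.70 and 12.44 on its brightest probe (−0.75 ± 0.27) and NRG1.2 at 10.04 and 9.66 against 9.24 and 9.19 (−0.63 ± 0.28), with adjusted p-values of 0.668 and 0.730. Both other NRG1.1 probes differed by −0.30 ± 0.30 and −0.02 ± 0.44.

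AT5G45490, the P-loop protein, gave the largest difference of the list without Al. Its brightest probe (A_84_P767186) had 6.54 and 6.20 in Col-0, not well above background, and 11.40 and 11.68 in AvSAMS1 TF without Al. AvSAMS1 TF was at least 36.0-fold higher (difference 5.18 ± 0.29, adjusted p = 0.0303). With Al, this probe was well above background in Col-0 replicate 1 (6.75) but not in replicate 2 (6.07), and stood at 11.25 and 11.27 in AvSAMS1 TF (4.85 ± 0.32, adjusted p = 0.0174). Its other probes were higher in AvSAMS1 TF as well, by 3.78 ± 0.31 and 2.51 ± 0.28 without Al.

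Without Al, 3 of the 65 tested NLR probes passed the adjusted threshold (CSA1, WRR4 and AT5G45490, 1 probe each), all higher in AvSAMS1 TF, against 72 of 34739 probes or 0.207% in all (58 higher, 0.167%, and 14 lower, 0.0403%). With Al, 12 NLR probes of 10 loci passed it, all higher, against 227 or 0.653% in all (184 higher, 0.530%, and 43 lower, 0.124%). Among them were CSA1, CHS3, WRR4, AT3G44670, RPP4, RPP5, RPP2A, RPP2B and AT5G45490. None of the 3 probes called without Al was well above background in all values of Col-0. They passed the filter through AvSAMS1 TF, so that their number beside the share of all probes is a description and no support. Of the 12 called with Al, RPP4 and RPP2A were the 2 measured in all 8 values. Among the 49 NLR probes of that kind, 0 were thus called without Al and 2 with Al, beside 7 (0.0272%) and 38 (0.147%) of all 25773. The labels number the experiments, and with this number as a block the comparison without Al gave 14 NLR probes of 401 in all. Among them were the 3 above, both remaining AT5G45490 probes, RPP2A, and 1 probe each of CHS3, AT3G44670, AT3G44400, RPP4, RPP5, RPP2B and RPP8. Leaving out any 1 of the 4 arrays leaves 1 line with a single array, and no call by limma remained then in either comparison. At an unadjusted p under 0.05, 27 NLR probes were counted without Al (7.37% of all probes), 22 of them higher (4.02%) and 5 lower (3.34%), and 31 with Al (8.68%), 24 of them higher (4.82%) and 7 lower (3.86%). Both comparisons use the same arrays, 1 channel each. Over the 28 loci with a probe well above background in all 8 values, the median difference was 0.03 without Al and 0.06 with Al, beside −0.06 and −0.02 over 16694 such loci.

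**Figure D2:**
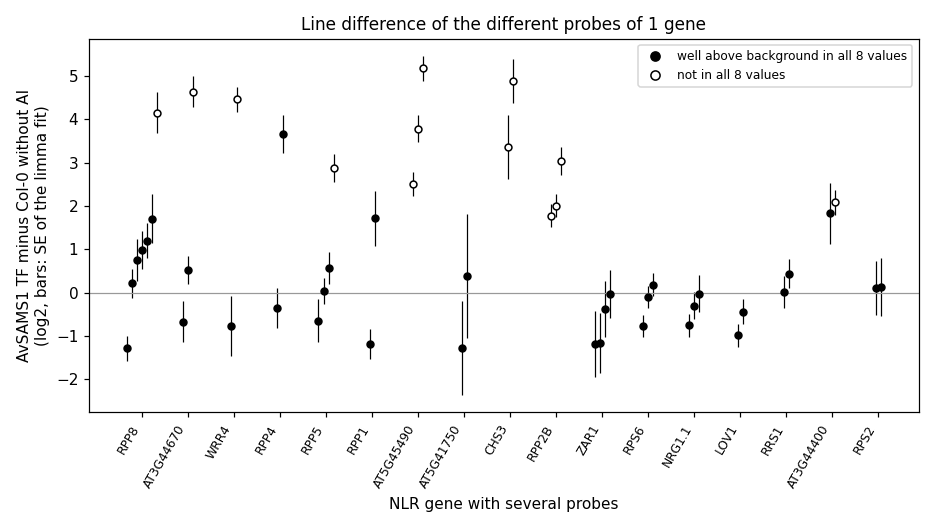
Difference between AvSAMS1 TF and Col-0 without Al (y axis, log2) for each probe of the 17 NLR genes with several tested probes (x axis, ordered by the spread between the probes). Bars are the SE of the limma fit and open points were not well above background in all 8 values. For WRR4, AT3G44670, RPP5, RPP8 and RPP1, points of the same gene lie on both sides of 0.

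The probes of 1 gene often differed in what they showed between the lines. Of the 17 NLR loci with several tested probes, 7 had probes that spread over more than 2 log2 units without Al, and 5 of them (WRR4, AT3G44670, RPP5, RPP8 and RPP1) had probes beyond 0.5 in both directions. The spread was 5.43 in RPP8, 5.32 in AT3G44670, 5.23 in WRR4 and 4.0 in RPP4. By contrast, all probes of CHS3, RPP2B, AT3G44400 and AT5G45490 were higher in AvSAMS1 TF, and the probes of RPS2 differed by only 0.02 from each other. CSA1, RPP2A and ADR1 have a single probe, so that no second reading exists for them here. The signal of a probe depends on the amount of transcript and on how well the transcript matches the probe, and these cannot be told apart in these data. The annotation that names the probes describes the genome of the Columbia accession, the ecotype given for both lines. Probes paired with loci of that genome, such as those of CSA1 and RPP2B, were nevertheless not well above background on either array of the line labelled Col-0. Whether both lines are of the same accession was not tested here, and a difference in accession, in the transgene or in transcript amount cannot be told apart in the line differences.

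The genes next to the listed NLR loci were examined to see whether the differences extended beyond the list. Only listed loci and loci without a tested probe were passed over. Whether a neighbour is itself an NLR gene outside the list was not checked. Among 55 neighbouring loci, read by their brightest probe, 9 were more than 2-fold higher in AvSAMS1 TF without Al (16.4%, beside 4.77% of all 21210 loci) and 6 more than 2-fold lower (10.9%, beside 5.55%). With Al, these were 7 (12.7%, beside 3.89%) and 6 (10.9%, beside 3.96%). AT5G45500, which lies directly beside AT5G45490, stood at 6.06 and 6.38 in Col-0 and at 13.98 and 13.48 in AvSAMS1 TF (7.51, adjusted p = 0.0294), the 1 neighbour that passed the threshold without Al. AT4G19520, beside the RPP2 pair, stood at 6.95 and 6.66 against 11.59 and 9.19 (3.59, adjusted p = 0.451). These were the 2 neighbours with a probe seen in AvSAMS1 TF alone. AT4G16880 near RPP4 (3.35), AT3G44430 near AT3G44400 (3.06), AT5G44520 near TAO1 (3.05) and PSRP6 beside CSA1 (2.1) followed, with adjusted p-values of 0.604, 0.0621, 0.224 and 0.195. With Al, 4 neighbours passed the threshold, AT5G45500, AT4G19520, AT3G44430 and AT5G44520, all higher in AvSAMS1 TF. In the other direction, the most negative differences without Al were those of AT3G44450 near RPP1 (−3.09, with no value for AvSAMS1 TF replicate 2), AT4G16930 near RPP5 (−1.89) and AT5G46510 near VICTR (−1.76), with adjusted p-values of 0.734, 0.577 and 0.399. Neighbours were named for their values.

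The question of the array experiment was the response to Al in each line. The dyes were not exchanged, so that a dye effect of a probe stays in the ratio of a line. After adjustment, limma called 0 of 65 NLR probes in either line and in the difference between the lines, as it called 0 of 34739 probes in each. The methods' t-test, which pools nothing across genes, called 1 of 34613 probes in Col-0 after adjustment and 0 NLR probes. At an unadjusted p under 0.05, there were 2 NLR probes for Col-0 (7.54% of all probes), 0 for AvSAMS1 TF (3.48%) and 1 in the difference (0.967%). They were CHS3 on its probe A_84_P11136 (−2.26 ± 0.42) and ADR1 (0.85 ± 0.26) in Col-0, and CHS3 on the same probe in the difference (1.80 ± 0.59). In Col-0, that CHS3 probe was well above background in replicate 1 only. The NLR probes well above background in Cy3 or Cy5 on both arrays of a line numbered 49 in Col-0 and 65 in AvSAMS1 TF. Of these, 0 were past 2-fold in the same direction on both arrays. Among all such probes, the shares were 3.18% higher and 2.55% lower of 31050 in Col-0, and 0.662% and 1.08% of 30677 in AvSAMS1 TF.

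**Figure D3:**
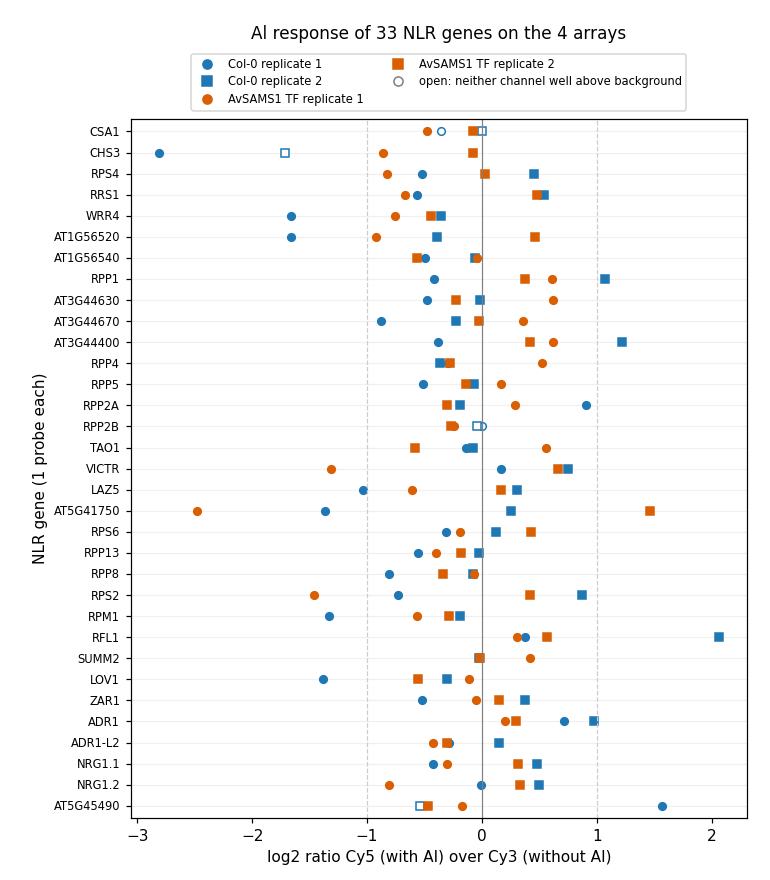
Log2 ratio of signal with Al over signal without Al (x axis) of 33 NLR genes (y axis, 1 probe each) on the 4 arrays. Points are single arrays, dashed lines mark 2-fold, and open points had neither channel well above background. Replicate 1 of Col-0 lies mostly left of 0, with a median of −0.48 over all 34 tested genes, and replicate 2 lies around 0.

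The ratios of the NLR genes differed between the replicates. The median log2 ratio of the 34 NLR loci was −0.48 and −0.02 on the arrays of Col-0 and −0.22 and −0.05 on those of AvSAMS1 TF, beside medians between −0.02 and 0.05 over all 21210 loci. In Col-0, 23 of the 49 NLR probes well above background in Cy3 or Cy5 on both arrays had ratios below 0 on both (32.2% of all such probes). Ratios above 0 on both arrays were found for 4 of them (32.0%). In AvSAMS1 TF these were 27 and 5 of 65 (21.0% and 18.1%). For RPS2, Col-0 gave −0.73 and 0.87 and AvSAMS1 TF gave −1.46 and 0.42, with opposite signs in the replicates of both lines. AT5G41750 had −1.37 and 0.25, and −2.48 and 1.46. The untreated plants differed here, since RPS2 was lower in replicate 2 than in replicate 1 by 1.42 and 1.17 without Al in Col-0 and AvSAMS1 TF and higher by 0.22 and 0.72 with Al. The day of sampling of the untreated plants, the software version and, in part, the slide change together with the replicate number and cannot be told apart.

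In Col-0, RFL1 had the largest positive mean ratio of the genes seen in both channels everywhere, with ratios of 0.37 and 2.06 (1.22 ± 0.49, adjusted p = 0.656), followed by ADR1 with 0.72 and 0.98 (0.85 ± 0.26, adjusted p = 0.655) and VICTR with 0.16 and 0.75 (0.46 ± 0.57). Of these genes, ADR1 had the ratios that lay closest together. On the lower side were AT1G56520 with −1.67 and −0.39 (−1.03 ± 0.53), WRR4 on its brighter probe with −1.66 and −0.36 (−1.01 ± 0.42) and LOV1 with −1.38 and −0.30 (−0.84 ± 0.38), with adjusted p-values of 0.706, 0.656 and 0.669. In AvSAMS1 TF, AT3G44400 had 0.62 and 0.42 (0.52 ± 0.47), RPP1 had 0.61 and 0.38 (0.50 ± 0.45) and RFL1 had 0.31 and 0.56 (0.44 ± 0.49). WRR4 had −0.76 and −0.44 (−0.60 ± 0.42), RPM1 had −0.57 and −0.29 (−0.43 ± 0.38) and ADR1-L2 had −0.43 and −0.30 (−0.37 ± 0.27), each with an adjusted p of 0.991. In the test between the lines, AT1G56520 (0.80 ± 0.75), AT3G44670 (0.72 ± 0.44) and RPP4 (0.45 ± 0.45) had the more positive response in AvSAMS1 TF, and RFL1 (−0.78 ± 0.70), VICTR (−0.78 ± 0.81) and ADR1 (−0.60 ± 0.37) the more negative, each with an adjusted p of 0.999. CSA1 cannot be read in this way in Col-0, where it was not well above background, and had ratios of −0.48 and −0.08 in AvSAMS1 TF. CHS3 on its probe A_84_P11136 had −2.81 and −1.72 in Col-0, the second from values not well above background. In AvSAMS1 TF, this probe had −0.86 and −0.08.

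The proteins that work with NLR receptors were measured beside them. All 24 loci of this list passed the filter and were well above background in all 8 values, and limma called 0 of them at the adjusted threshold in any of the 5 comparisons. With each locus read by its brightest probe, 1 had an unadjusted p under 0.05 for the response of Col-0 to Al, 1 for the line difference with Al and 0 elsewhere. Over all 43 partner probes, these were 1 for the response of Col-0 (HSP90.1), 1 for the line difference without Al (HSP90.2) and 4 for that with Al (3 of EDS1, lower in AvSAMS1 TF, and 1 of HSP90.2), with 0 after adjustment. The dimmer HSP90.2 probe (A_84_P168163) had 11.21 and 11.63 in Col-0 against 12.93 and 13.14 in AvSAMS1 TF without Al (1.61 ± 0.29, adjusted p = 0.296) and differed by 1.37 ± 0.23 with Al (adjusted p = 0.154). The brighter one differed by 0.15 ± 0.41 and −0.14 ± 0.37, so that the probes of this chaperone gene disagreed as well. Their median line difference was 0.09 without Al and −0.12 with Al, beside −0.08 and −0.03 over all 21210 loci, and none was seen in 1 line alone. EDS1, the hub of TNL signalling, had untreated signals of 11.83, 10.33, 10.67 and 10.20 (−0.64 ± 0.59) and was lower in AvSAMS1 TF with Al (11.19 and 11.57 against 10.83 and 10.31, −0.81 ± 0.31, adjusted p = 0.573). PAD4, the partner of ADR1 helpers, had 13.45, 12.24, 13.29 and 11.98 (−0.21 without Al), with the higher value in replicate 1 of both lines. SAG101, the partner of the NRG1 helpers, was above 0 in its Al ratio on both arrays of Col-0 (0.44 and 1.08) and differed in sign between those of AvSAMS1 TF (−0.51 and 0.73). RIN4 was higher in AvSAMS1 TF without overlap, by 0.63 ± 0.42 without Al and 0.54 ± 0.23 with Al (adjusted p-values of 0.808 and 0.646). EDS1B, the close copy of EDS1 (1.11 ± 0.80 without Al), NDR1, a membrane protein needed by several CNL receptors (−0.53 ± 0.38 without Al), and SGT1A (0.34 ± 0.30 with Al) did not pass the threshold either. HSP90.1, a chaperone that stabilises NLR proteins together with SGT1 and RAR1, had the largest mean Al response, with 0.96 and 1.57 on the arrays of Col-0 (1.26 ± 0.45) and 0.42 and 1.80 on those of AvSAMS1 TF (1.11 ± 0.45), with adjusted p-values of 0.655 and 0.991. Of the partners with ratios below 0 on both arrays of a line, the most negative means were those of SGT1A (−0.45 ± 0.36) and ZED1, a pseudokinase partner of ZAR1 (−0.21 ± 0.34), in Col-0 and of the corepressor TPR1 (−0.37 ± 0.29) and RAR1 (−0.16 ± 0.26) in AvSAMS1 TF, and none of them passed the threshold.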

How the data were processed

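RNA of the 4 Agilent arrays had been labelled and scanned by the authors. The deposited intensity values are the spot and background signals and the processed signals of both channels. The deposited log10 ratios (Cy5 over Cy3) and their p-values come from Feature Extraction, after background subtraction and dye correction within the array. The header versions are 11.0.1.1 for replicate 1 and 10.7.1.1 for replicate 2, where the submitters' processing notes give 10.7.3.1. The deposited log2 ratios of the series table equalled the log2 ratio of processed signals within 0.01 for at least 99.95% of the probes of each array, and served as an alternative. A deposited ratio of 0 can mark a probe with no usable signal in either channel.

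Control and outlier spots were left out and replicate spots averaged. Probes were paired to loci through the annotation in the files, which comes in 2 design versions, with names from the TAIR10.1 table. Al responses were tested with limma 3.58.1 (R 4.3.3) on log2 ratios, with 1 coefficient per line and 2 residual degrees of freedom. The lines were compared on log2 Cy3 and log2 Cy5 intensity after normexp (offset 50), loess and Aquantile, with Benjamini-Hochberg adjustment over 34739 probes, which had to be well above background in Cy3 or Cy5 on 2 arrays or more. The number of arrays limits the precision. Lower bounds of folds were set against the lowest signal well above background on each array. The brightest probe stands for a locus.

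Members and lists were chosen with earlier results of these data known. Named in full are the paired and helper receptors, the 3 largest mean changes per direction and comparison among well-measured members, and of 24 partner loci the 2 largest and EDS1, PAD4 and SAG101. Other genes were named after their values were seen. The numbers pair the samples by the labels (exp1, exp2), and deviations of same-numbered samples from the line mean correlated at 0.43 (ratios), 0.65 (Cy3) and 0.44 (Cy5). Of the list, 1 locus of the list is counted in the totals but is not reported here by itself. No probe sequences were used here. The tests were also tried on simulated data with the means and spreads of these data.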

Additional observations from a re-analysis of the deposited data

How the results depend on the processing

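The counts of called probes depended on the fit. Of the NLR probes with a line difference beyond 0.5 (42 without Al, 40 with Al), 0 changed sign under quantile or percentile scaling of the processed signals. Without Al, limma called 72 probes and 3 NLR probes. There were 401 and 14 with the replicate block, 406 and 17 in a fit over both channels, and 133 and 8 after quantile normalisation of processed signals. Percentile scaling, a Student's t-test per probe and the mean of all probes of a locus each gave 0 and 0. Without a filter 1 NLR probe was called. The strict filter, which by construction removes probes seen in 1 line, left 0 and 0 in both line comparisons. With Al, limma called 227 and 12. There were 345 probes after quantile normalisation, 366 in the fit over both channels, and 80 loci with 4 NLR loci for the mean of all probes. The Student's t-test per probe gave 0 and 0. Without any 1 array, both comparisons gave 0 calls, with the lone array assumed to vary like those of the other line. In the Al responses the block changed no call, and the t-test called 1 probe in Col-0. Of the 10 NLR probes seen in AvSAMS1 TF alone, 3 remained with the other flag. Within 1 replicate number, 13 to 14 were counted, the 14 including SUMM2 with its dropped spot.

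The median difference of the NLR loci without Al (0.12) was 0.027 with the strict filter, 0.28 with the mean of all probes and between 0.057 and 0.42 without 1 array. With Al (0.26), it was 0.49 with the mean of all probes and between 0.094 and 0.49 without 1 array. The median Al response was between −0.48 and −0.022 in Col-0 and between −0.22 and −0.049 in AvSAMS1 TF without 1 array, and 0.13 in AvSAMS1 TF with median centring. The median difference in response was between −0.25 and 0.43. Some genes changed sign. Without Al, WRR4 differed by −1.60 to 0.060 without 1 array (0.060 without Col-0 replicate 1) and by 1.84 with the mean of its probes, and EDS1 by −1.39 to 0.10 (0.10 without Col-0 replicate 1). TPR1 responded in AvSAMS1 TF by 0.032 with median centring and by 0.067 with the mean of probes. PAD4 responded in Col-0 by −0.053 to 0.98 without 1 array (−0.053 without Col-0 replicate 2), and RFL1 differed in response by −1.63 to 0.064 (0.064 without Col-0 replicate 2). The causes were not tested. Of the other gene values, 1162 kept their call, 27 lost a call and 3 gained one. Sign changes of values smaller than their SE are counted among the 1162. An example is RRS1 without Al, with 0.011 in the main fit and −0.031 after quantile normalisation. Values near background carry the widest uncertainty, and 18 of the 67 probes were not well above it everywhere.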
